A study of Danio rerio with 4 samples.

Results

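Genes of the Yap, Tead and Ccn families were picked by symbol from the deposited heart transcriptome, namely *yap1*, *taz*, *tead1a*, *tead1b*, *tead3b* and the Ccn genes *ccn1*, *ccn1l1*, *ccn1l2*, *ccn2a* and *ccn2b*. The table holds 19661 genes, of which these are 10, and all 10 had a mean of at least 5 normalized counts, the limit that left 17501 genes for testing. RNA was sequenced from zebrafish hearts dissected at 48 hours postfertilization (hpf). The hearts came from *egr3* mutants homozygous for *bns577*, an 11-bp deletion in the gene of the transcription factor Egr3 that introduces an early stop codon, and from wild-type siblings homozygous for the intact allele. Each genotype was represented by 2 libraries, each from a pool of 20 hearts, and both were sampled at the same stage with no treatment. The mutation is carried by all cells of the embryo, so the comparison is not limited to the endocardium or to the atrioventricular canal. The parents of the pools are not given in the sources used here.

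The Hippo pathway is a kinase cascade that restrains growth. Its kinases phosphorylate the coactivators Yap1 and Taz and keep them out of the nucleus, and when the cascade is low or cells are stretched, both enter the nucleus and act through DNA-binding Tead factors. The Ccn proteins are secreted, matrix-associated proteins, and in mammals Ccn1 (Cyr61) and Ccn2 (Ctgf) are among the most used readouts of Yap and Taz activity. The pathway is of interest in the forming valve because blood flow and contraction act on the endocardium there, and the study asks how Egr3 relays such forces.

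The symbol *taz* did not stand for the Yap partner in this table. The row *taz* (ENSDARG00000041421, chromosome 23) is annotated there as tafazzin, a mitochondrial enzyme that remodels cardiolipin, and the name table used here gives the same gene as TAFAZZIN. The coactivator Taz is listed under *wwtr1* (ENSDARG00000067719, chromosome 22, WW domain-containing transcription regulator 1). Values of *taz* are therefore given as those of tafazzin, and *wwtr1* is shown beside *yap1*.

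The values are normalized counts, which the authors made from reads per gene with DESeq2 and rounded to whole numbers. Division by a factor for each library is the usual step in that tool, but whether a further correction was applied is not known. Across the 17501 genes tested, the deviations of wild type 1 and mutant 1 from their genotype means mirrored each other (correlation -0.987), and standard errors and p-values depend on how this arose. Their totals ranged from 9161759 to 9481943 over the 4 libraries. The markers of the labelled tissue were plentiful, with summed normalized counts from 22342 to 24675 for the myocardial list and from 21256 to 23973 for the endocardial and endothelial list. Genotypes were compared on log2(normalized count + 1) by limma, a linear model with moderated variances, and p-values were adjusted by Benjamini-Hochberg over all genes tested, and 1 of 17501 genes (0.00571%) had an adjusted p under 0.05. That gene was *he1.1*, which is not a member. The level of *egr3* does not check the genotype, because the deletion removes only 11 bp. Its normalized counts were 528 and 537 in wild types and 873 and 889 in mutants. In the sheet that accompanies the study, the libraries named for the second mutant and the second wild type stand under each other's sample ID. The sample labels were followed here. If that sheet were right and the labels wrong, wild type 1 and mutant 2 would share a genotype. These are the libraries that were high together for *ccn1*, *ccn2a* and other members, as for 42.9% of all genes tested. They deviated together over all genes tested (correlation 0.987), so the order of a few members cannot decide between the sheet and the labels. The 3 genes *nr4a2b*, *spp1* and *nrg1*, which the study followed up, separate the libraries as labelled, and are named here after their values were seen. The study picked them because they differed between these same libraries and are expressed in the valve. Their values here are thus no independent check of the labels. The study also shows in situ hybridization, a staining of RNA in the tissue, for *nr4a2b* and *spp1* in siblings of both genotypes. That staining does not depend on these libraries. Its outcome by genotype is not described in the study's text, and it was not compared with the values here. *nr4a2b*, a nuclear receptor gene, stood at 0 in mutant 1 and mutant 2, against 47 and 43 normalized counts in the wild types. *spp1* (osteopontin) had 740 and 749 in wild types and 159 and 163 in mutants, and *nrg1* (neuregulin) had 176 and 221 in wild types and 54 and 45 in mutants. None of the 3 passed an adjusted p of 0.05 in limma (0.122 for *nr4a2b*, 0.0774 for *spp1* and 0.126 for *nrg1*). The study reports more genes under this threshold from these hearts with its own test. Not passing here therefore does not show that a gene is unchanged.

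No member passed an adjusted p of 0.05 in limma, and their adjusted p ranged from 0.122 to 0.853. Before adjustment, 3 members had p under 0.05 in limma, *ccn1l2*, *ccn1l1* and *tead1a*, all 3 with higher values in mutants, against 21.6% of all genes tested in either direction and 10.8% in this direction. With the replicate number added as a block, only *ccn1l2* among the members had an unadjusted p under 0.05 in limma, against 4.9% of all genes tested. In 5 of the 10 (*yap1*, *tead1a*, *ccn2b*, *ccn1l1* and *ccn1l2*), both mutants lay above both wild types, against 24.7% of all genes tested. In none did both mutants lie below both wild types, against 25.8% of all genes tested. With *wwtr1* in place of *taz* (tafazzin), both mutants lay above both wild types in 5 of 10 genes and below them in 1, *wwtr1* itself. The median log2 fold change was 0.23 over the 10 members and 0.00 over all genes tested. The values were higher in mutants by at least 1.5-fold in the same 3 genes, against 9.71% of all genes tested. A permutation of 2 against 2 libraries cannot give an exact two-sided p below 0.333, so no such test was made.

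**Figure D1:**
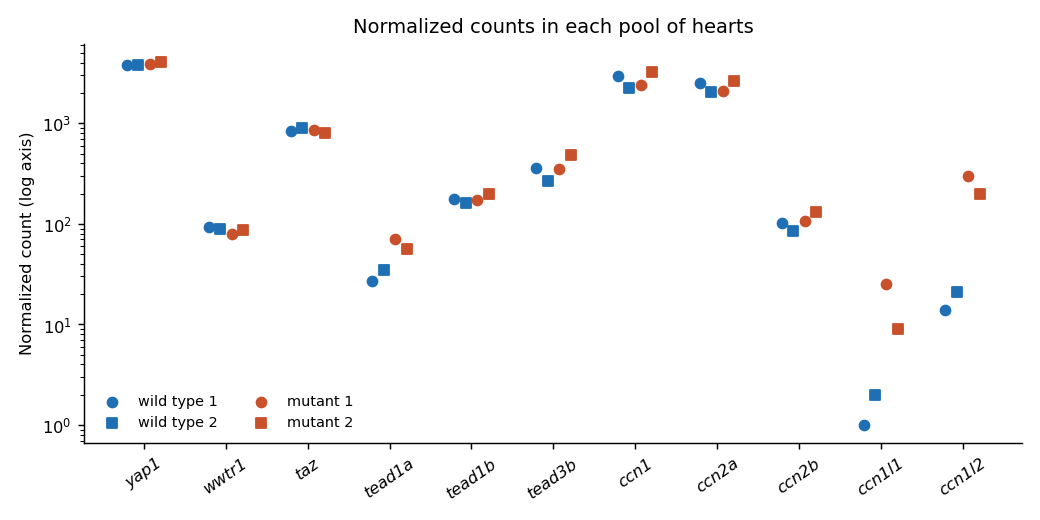
Normalized counts (log axis) of the 10 members and *wwtr1* in each pool of 20 hearts; blue points are wild types, orange points are mutants, circles are replicate 1 and squares replicate 2. *ccn1l2* had 14 and 21 normalized counts in wild types and 298 and 199 in mutants, whereas *yap1*, *ccn1* and *ccn2a* had at least 2049 in every pool.

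*yap1* (ENSDARG00000068401, chromosome 18, 37283765 to 37355666), the coactivator that carries the output of the pathway, had 3785 and 3777 normalized counts in wild types and 3915 and 4062 in mutants. Both mutant pools were thus slightly above both wild-type pools. The difference was 0.08 on the log2 scale (standard error 0.03, adjusted p = 0.248 from limma). Its sister coactivator *wwtr1* had 94 and 89 normalized counts in wild types and 80 and 87 in mutants, a log2 difference of -0.13 (standard error 0.11, adjusted p = 0.529 from limma). The 2 groups did not overlap for *wwtr1*, but the gap of 2 normalized counts between wild type 2 and mutant 2 was smaller than the difference between the mutants. Tafazzin (*taz*) had 836 and 908 normalized counts in wild types and 849 and 809 in mutants, and the genotypes overlapped (log2 difference -0.07, standard error 0.07, adjusted p = 0.563 from limma).

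The Tead factors bring Yap1 and Taz to DNA, since neither coactivator binds DNA itself. *tead1a* (ENSDARG00000028159, chromosome 25, 16356083 to 16431599) had 27 and 35 normalized counts in wild types and 70 and 56 in mutants. The lower mutant lay well above the higher wild type. The log2 fold change was 1.00 (standard error 0.22, unadjusted p = 0.0132 and adjusted p = 0.152 from limma), and 4.28% of all genes tested had a log2 fold change at least as large. Its duplicate *tead1b* (ENSDARG00000059483, chromosome 7) had 178 and 160 normalized counts in wild types and 171 and 197 in mutants. Here the genotypes overlapped, with a log2 difference of 0.12 (standard error 0.12, adjusted p = 0.599 from limma). *tead3b* (ENSDARG00000063649, chromosome 6) had 357 and 269 normalized counts in wild types and 354 and 486 in mutants. The genotypes overlapped because wild type 1 and mutant 1 were almost equal, and the log2 difference was 0.42 (standard error 0.24, adjusted p = 0.382 from limma). *tead3a*, the remaining Tead gene in the table, had an adjusted p from limma above 0.05 and is counted with the pathway list.

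*ccn1* and *ccn2a*, the Ccn genes with the most reads, did not separate the genotypes. By mean level they stood at percentiles 97.2 and 96.0 of the genes tested. The authors removed duplicate reads, which can compress genes this abundant, and that effect was not tested. *ccn1* (ENSDARG00000023062, chromosome 23, 45456490 to 45465320) had 2931 and 2250 normalized counts in wild types and 2387 and 3219 in mutants. Wild type 1 and mutant 2 were high and the other two low, so the difference within each genotype was larger than that between their means. The log2 difference was 0.11 (standard error 0.22, adjusted p = 0.794 from limma). *ccn2a* (ENSDARG00000042934, chromosome 20, 25340814 to 25343490) had 2508 and 2049 normalized counts in wild types and 2104 and 2667 in mutants, with the same order of libraries. Its log2 difference was 0.06 (standard error 0.17, adjusted p = 0.853 from limma), the smallest among the members. *ccn2b* (ENSDARG00000104292, chromosome 19), the duplicate of *ccn2a*, had 101 and 85 normalized counts in wild types and 106 and 131 in mutants. Both mutants were above both wild types, by as little as 5 normalized counts between wild type 1 and mutant 1, and the log2 difference was 0.34 (standard error 0.17, adjusted p = 0.34 from limma).

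The high libraries for *ccn1*, *ccn2a*, *ccn2b*, *tead1b* and *tead3b* were the same ones, wild type 1 within the wild types and mutant 2 within the mutants. With *yap1*, 6 of the 10 members had this order, against 42.9% of all genes tested. The other 4 (*taz*, *tead1a*, *ccn1l1* and *ccn1l2*) were high in wild type 2 and mutant 1, against 45.5%. Because the deviations of the genotypes mirrored each other over all genes tested, most genes had 1 of these 2 orders. The order in the second genotype is thus not a repeat of that in the first. Several marker lists had the order of *ccn1* as well, namely those of epicardium (5 of 5 genes), endocardium and endothelium (7 of 8), macrophages and neutrophils (5 of 5) and fibroblasts and tendon (6 of 7). Others had the opposite order, namely those of skin and periderm (8 of 8), notochord and floor plate (4 of 4 tested), hatching gland (4 of 5 rows) and myocardium (5 of 8 rows). The epicardial list had summed normalized counts of 1296 and 996 in wild types and 990 and 1333 in mutants. The fibroblast and tendon list had 17355 and 15346 in wild types and 15454 and 18124 in mutants, the endocardial and endothelial list 23034 and 21256 in wild types and 21336 and 23973 in mutants, and the macrophage and neutrophil list 3765 and 3030 in wild types and 3215 and 4125 in mutants. The part of these cell types in the values of the Ccn and Tead genes was not tested. In a bulk sample, fewer cells of a type and less RNA per cell cannot be told apart.

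**Figure D2:**
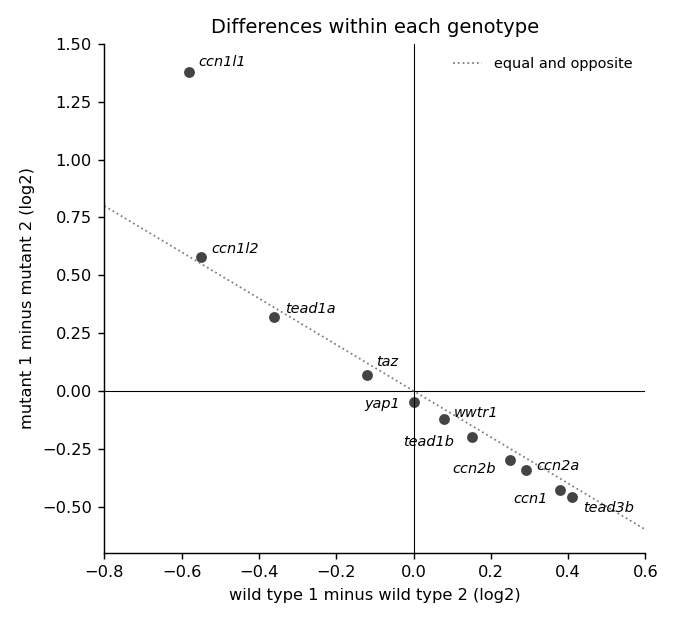
Difference between the wild-type pools (x axis) and between the mutant pools (y axis) in log2(normalized count + 1), 1 point per gene for the 10 members and *wwtr1*; the dotted line marks equal and opposite differences. All genes but *ccn1l1* lie near the dotted line; *ccn1* was 0.38 higher in wild type 1 than in wild type 2 and 0.43 lower in mutant 1 than in mutant 2.

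The differences within the 2 genotypes were mirror images of each other. *tead3b* was 0.41 higher in wild type 1 than in wild type 2 on the log2 scale, and in mutants the difference between replicates 1 and 2 was -0.46. For *ccn1l2* the corresponding values were -0.55 and 0.58. The exception was *ccn1l1*, with -0.58 and 1.38, whose values of 1 and 2 in wild types leave little to resolve. For these genes the pools of 1 genotype therefore did not vary independently of those of the other, whereas limma treats their spread as 2 independent measures.

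The largest difference among the members was in *ccn1l2* (ENSDARG00000099985, cellular communication network factor 1-like 2), a paralog of *ccn1*. It had 14 and 21 normalized counts in wild types and 298 and 199 in mutants, so that the lower mutant exceeded the higher wild type several times over. Wild types averaged 17.5 ± 4.95 and mutants 248.5 ± 70 normalized counts (SD, n = 2 pools), a ratio of means of 14.2. The log2 fold change was 3.75 (standard error 0.32, unadjusted p = 0.000555 and adjusted p = 0.122 from limma). It ranked 12 among the 17501 genes tested when ordered from the largest log2 fold change down, and 78 by p. The 12 genes with a log2 fold change at least as large make up 0.0686% of those tested.

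*ccn1l1* (ENSDARG00000035422, chromosome 5, 32914321 to 32920149), another paralog of *ccn1*, was near the limit of detection in wild types. It had 1 and 2 normalized counts there and 25 and 9 in mutants. The groups did not overlap, but the mutants differed from each other by more than the lower mutant differed from the wild types. The log2 fold change was 2.72 (standard error 0.63, unadjusted p = 0.0162 and adjusted p = 0.161 from limma), and 0.377% of all genes tested had one at least as large. On the log2(normalized count + 1) scale the change of a gene this low is understated, and the value depends on the constant added before the log (3.01 with 0.5 and 1.66 with 5). No counting interval can be given because the values are no longer whole reads.

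*ccn1l2* and *ccn1l1* contribute a small part of the total of the Ccn members, which differed widely between pools of the same genotype. The 5 Ccn genes summed to 5555 and 4407 normalized counts in wild types and 4920 and 6225 in mutants, and the genotypes overlapped. *ccn1l2* made up 0.252% and 0.477% of this sum in wild types and 6.06% and 3.2% in mutants. Without *ccn1l2*, the other 4 Ccn genes summed to 5541 and 4386 in wild types and 4622 and 6026 in mutants. The mean sum was 4981 in wild types and 5572 in mutants with *ccn1l2*, and 4964 and 5324 without it. The shares of *ccn1l2* are of reads and are not corrected for transcript length. Removal of duplicate reads can also compress the abundant *ccn1* and *ccn2a* within these sums.

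**Figure D3:**
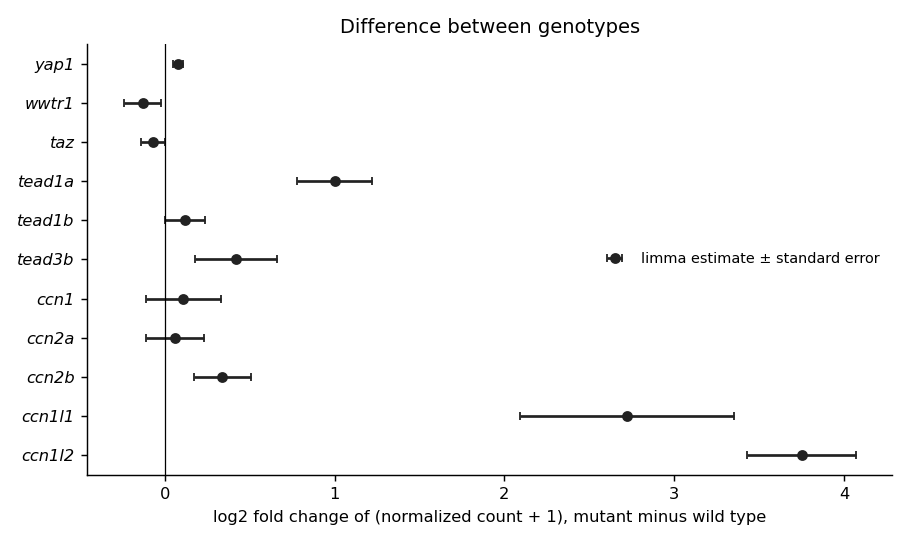
Log2 fold change of (normalized count + 1), mutant minus wild type, for the 10 members and *wwtr1*; points are limma estimates and bars are standard errors (2 pools per genotype). *ccn1l2* (3.75), *ccn1l1* (2.72) and *tead1a* (1.00) lie apart from the remaining genes, which range from -0.13 to 0.42.

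Some markers of tissues outside the heart were also higher in both mutants, like *ccn1l2*, *ccn1l1* and *tead1a*, but other genes of the same lists were not. Both mutants lay above both wild types in 2 of the 5 notochord and floor plate genes, in 4 of the 5 neuron and neural crest genes and in 4 of the 6 skeletal muscle genes. The share over all genes tested was 24.7%. Of the 6 genes of the notochord and floor plate list, 5 were in the table, and these summed to 16 and 59 normalized counts in wild types and 164 and 76 in mutants. The cartilage and notochord collagen gene *col9a1a* had 0 and 2 normalized counts in wild types and 81 and 22 in mutants, and *col2a1a* had 4 and 6 in wild types and 54 and 41 in mutants. The sonic hedgehog gene *shha*, made by notochord and floor plate, had 7 and 44 normalized counts in wild types and 17 and 2 in mutants, an overlap, and *shhb* and *col8a1a* overlapped too. *tbxta*, the defining notochord factor of the list, was not analysed here. The neuron and neural crest list (5 of 6 in the table) summed to 878 and 998 normalized counts in wild types and 1360 and 1323 in mutants, and its neural crest gene *sox10* had 2 and 1 in wild types and 27 and 36 in mutants, whereas *tfap2a* overlapped. The skeletal muscle list (6 of 6) summed to 4029 and 3928 in wild types and 4259 and 4955 in mutants. Most of that sum is *ckma* (muscle creatine kinase), which had 3179 and 3306 normalized counts in wild types and 3034 and 3021 in mutants. It was lower in both mutants (unadjusted p = 0.0388 and adjusted p = 0.208 from limma), and *actn3b* overlapped. The values of *ckma* were close to those of the myocardial gene *nppa* (3213 and 3332 in wild types, 3075 and 3070 in mutants). Which tissue its reads came from was not tested. The part of these tissues in the values of *ccn1l2*, *ccn1l1* and *tead1a* was not tested.

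Among the remaining marker lists, the skin and periderm list summed to 3518 and 19771 normalized counts in wild types and 4215 and 1260 in mutants. Genes particular to the hatching gland and to ionocytes were low in mutants. The hatching enzyme gene *he1.1* had 987 and 1063 normalized counts in wild types and 17 and 16 in mutants, *he1.2* had 280 and 388 in wild types and 2 and 1 in mutants, and the ionocyte factor *foxi3a* had 28 and 39 in wild types and 1 and 1 in mutants. The sums of these lists show this poorly, because *cd63* and *atp6v1aa*, which many cells use, carry most of the mutant values. They were 3065 and 3430 in wild types and 1609 and 1621 in mutants for the hatching gland, and 1695 and 1815 in wild types and 1545 and 1520 in mutants for ionocytes. The red blood cell list summed to 7156 and 6959 in wild types and 7300 and 7794 in mutants. Summed values ranged from 3030 to 4125 for macrophages and neutrophils and from 68 to 131 for yolk and liver, and the genotypes overlapped in both, as they did for the myocardial and the endothelial sums. The myocardial sum overlapped because of *myh6* (8169 and 9625 in wild types, 9652 and 8481 in mutants). In the 7 other myocardial rows of the table both mutants lay below both wild types, against 25.8% of all genes tested, with *myl7* (log2 difference -0.12) and *nppa* (-0.09) under an unadjusted p of 0.05 in limma. *nppa* lies on the chromosome of *egr3*, at -2.115 Mb from it (gene center to gene center), so its value is confounded with the version of that region.

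*ccn1l2* is the only member on chromosome 8, where *egr3* lies. It spans 52619365 to 52631064 on the plus strand in the coordinates of the deposited annotation (build danRer11), 1.89 Mb from *egr3*. The other 9 members lie on chromosomes 5, 6, 7, 18, 19, 20, 23 and 25, with *ccn1* and *taz* both on 23. Mutants are homozygous for the chromosome that carries the deletion and wild types for its intact counterpart, so the 2 versions of the region are confounded with the genotype and their effects cannot be told apart. No member overlaps another gene of the table, so reads of an antisense or overlapping gene listed there are not shared with them.

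Many neighbors of *ccn1l2* also differed between the genotypes. Between *egr3* and *ccn1l2*, 16 of 29 tested genes (55.2%) had an unadjusted p under 0.05 in limma, 9 higher and 7 lower in mutants, against 21.6% of all genes tested. No gene among these 29 passed the adjusted threshold in limma. Within 10 Mb of *egr3*, leaving out *egr3* and *ccn1l2*, 69 of 166 genes (41.6%) had an unadjusted p under 0.05, and the genotypes did not overlap in 69.3%, against 50.5% of all genes tested. None of these 166 genes had a log2 fold change as large as that of *ccn1l2*. The next highest was *lgi3*, with 3 and 5 normalized counts in wild types and 37 and 25 in mutants (log2 fold change 2.68, standard error 0.37, adjusted p = 0.134 from limma). The lowest values were of like size, -2.75 for both *si:dkey-32e23.4* and *rhobtb2a*. Their unadjusted p from limma was 0.000542 for *si:dkey-32e23.4* but 0.124 for *rhobtb2a*, which is thus the less certain value. These 3 genes were chosen after their values were seen.

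The genes on either side of *ccn1l2* differed from each other in direction. *si:dkey-90l8.3*, which starts 6.44 kb beyond its end, had 36 and 31 normalized counts in wild types and 7 and 9 in mutants. Its log2 difference was -1.94 (standard error 0.23, adjusted p = 0.13 from limma), opposite to that of *ccn1l2*. *si:ch73-199g24.2*, which ends 25.3 kb before *ccn1l2*, had 350 and 384 normalized counts in wild types and 419 and 395 in mutants (log2 difference 0.15, standard error 0.08, adjusted p = 0.369 from limma). Both mutants were above both wild types there, as for *ccn1l2*, but the gap of 11 normalized counts between mutant 2 and wild type 2 was smaller than the difference between replicates of either genotype.

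**Figure D4:**
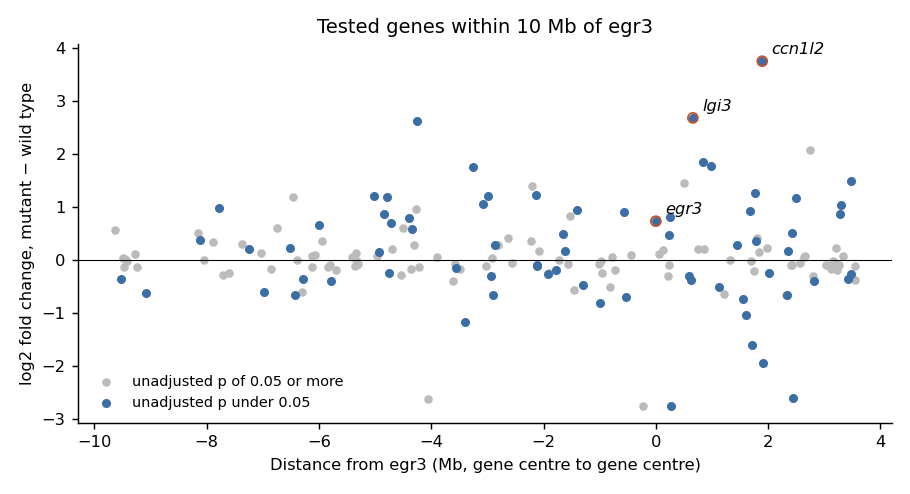
Log2 fold change, mutant minus wild type, of the tested genes within 10 Mb of *egr3* against distance from *egr3* in Mb; blue points have an unadjusted limma p under 0.05, and *egr3*, *lgi3* and *ccn1l2* are circled. *ccn1l2* (3.75, 1.89 Mb from *egr3*) has the highest value in the window, and genes with higher and with lower values are mixed along it.

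Other genes of the Hippo pathway showed no common direction. Of 38 listed genes, 32 were in the table and 31 were tested. None had an adjusted p under 0.05 in limma. Before adjustment, 5 had p under 0.05 with higher and 3 with lower values in mutants, which together is 8 of 31 against 21.6% of all genes tested. The median log2 fold change was 0.08. The 4 with the largest log2 differences were *taok2b*, *stk3*, *amotl2b* and *wwc1*. *stk3*, a zebrafish gene of the upstream Mst kinases, had 72 and 69 normalized counts in wild types and 124 and 134 in mutants. Its log2 difference was 0.86 (standard error 0.10, adjusted p = 0.13 from limma). *stk4*, also on the list, was not found under that symbol. *taok2b*, of the Tao kinases that act on Mst kinases, had 14 and 14 in wild types and 38 and 39 in mutants (log2 difference 1.40, standard error 0.16, adjusted p = 0.129 from limma). In both kinase genes the genotypes were far apart and the replicates close, but pools of different genotypes did not vary independently. With the replicate block the standard errors were 0.48 for *taok2b* and 0.27 for *stk3* (adjusted p = 0.841 for each from limma). Their unadjusted p in that fit was 0.0443 for *taok2b* and 0.0345 for *stk3* from limma. These were the 2 of 31 pathway genes under 0.05 there, against 4.9% of all genes tested. *wwc1* (Kibra), an upstream activator of the kinases, had 394 and 304 normalized counts in wild types and 204 and 274 in mutants (log2 difference -0.55, standard error 0.22, adjusted p = 0.272 from limma), so both mutants were below both wild types.

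Genes that respond to Yap and Taz in mammals included both higher and lower values. Of 30 listed genes, 27 were in the table and 26 were tested, and none had an adjusted p under 0.05 in limma. Before adjustment, 5 had p under 0.05 with higher and 3 with lower values in mutants, against 10.8% of all genes tested in each direction. Both mutants lay above both wild types in 11 of the 26 and below them in 4, against 24.7% and 25.8% of all genes tested. The median log2 fold change was 0.18, with a range from -0.40 to 2.32. The 3 genes *amotl2a*, *amotl2b* and *lats2* are also in the pathway list. The highest value was that of *myof* (myoferlin, a membrane repair protein), with 3 and 4 normalized counts in wild types and 24 and 19 in mutants (log2 difference 2.32, standard error 0.29, adjusted p = 0.134 from limma). *amotl2b*, of the angiomotins that hold Yap1 at cell junctions, had 194 and 157 normalized counts in wild types and 242 and 309 in mutants (log2 difference 0.64, standard error 0.19, adjusted p = 0.191 from limma). Both mutants were above both wild types for *myof* and *amotl2b*. The next in size, *foxf2b* and *myofl*, overlapped between genotypes, with normalized counts of 15 and 23 against 35 and 23 for *foxf2b* and of 42 and 29 against 41 and 62 for *myofl* (wild types first).

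Of 5 other Ccn genes listed, 4 were in the table and only *ccn4b* and *ccn5* reached a mean of 5 normalized counts. *ccn4b* had 72 and 50 normalized counts in wild types and 42 and 62 in mutants, and *ccn5* had 6 and 2 in wild types and 4 and 12 in mutants. Both overlapped between genotypes, and neither had an unadjusted p under 0.05 in limma.

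**Figure D5:**
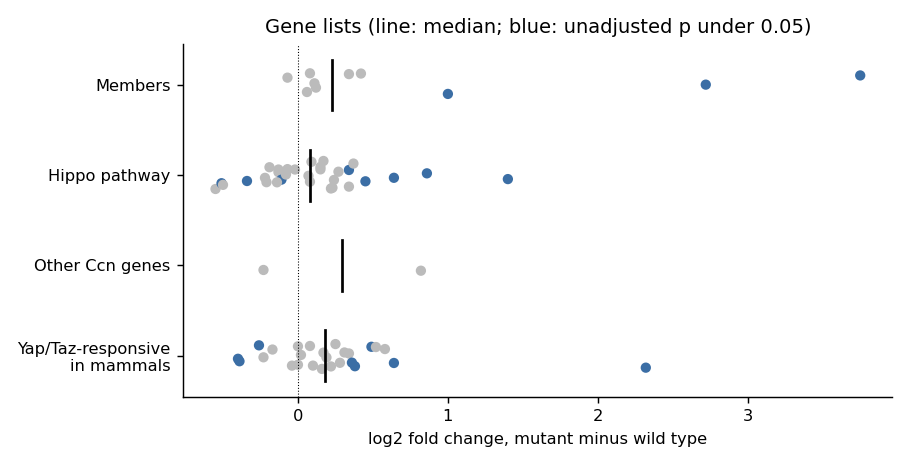
Log2 fold change, mutant minus wild type, of each tested gene of 4 lists: the 10 members, the Hippo pathway (31 genes), 2 other Ccn genes and 26 genes that respond to Yap and Taz in mammals; vertical lines are medians and blue points have an unadjusted limma p under 0.05. Medians were 0.23, 0.08, 0.29 and 0.18, and the pathway and target lists hold blue points on both sides of 0.

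Across the 4 libraries, the genes whose log2(normalized count + 1) values followed *ccn1l2* most closely were *tbc1d32*, *stmn2a* and *chrna2b*. Likeness was measured as the Euclidean distance between values centered on each gene's mean, which was 0.414, 0.44 and 0.469 for these genes. *stmn2a* (stathmin 2, a neuronal microtubule protein) was listed at 0 in both wild types and had 13 and 10 normalized counts in mutants. *chrna2b*, a nicotinic acetylcholine receptor subunit gene, was listed at 0 in both wild types and had 13 and 11 in mutants. *tbc1d32* was also listed at 0 in both wild types, with 14 and 9 in mutants. None of them lies on chromosome 8. For genes listed at 0 the distance depends on the constant added before the log, and the measure rests on 4 libraries.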

How the data were processed

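Libraries were made with a low-input SMART-Seq kit, which does not mark strand, from 2 pools of 20 hearts per genotype at 48 hpf. Per the labels, the authors used Trimmomatic 0.39, STAR 2.7.10a, Picard 2.27.1, featureCounts 2.0.2 and DESeq2 1.30.1 with the danRer11 build. Multi-mapping and duplicate reads were removed. Duplicates of single-end reads are recognized only from where they start, which can compress abundant genes. Among the members, *yap1*, *ccn1* and *ccn2a* had the highest mean levels, at percentiles 99.2, 97.2 and 96.0 of the genes tested. The deposited score of a gene is a count normalized by the authors with DESeq2 and rounded, and is no longer a raw count. Whether anything beyond a library factor was applied is not given in the sources used here. Precision at low values is limited by this rounding.

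Values were tested with limma 3.58.1 in R 4.3.3 (lmFit, eBayes with a trend) on log2(value + 1), for genes with a mean of at least 5, and the fit was tested on simulated data. Python 3.11.15 was used otherwise. The study calls the pools biological duplicates. It states in general that its zebrafish genetic experiments were repeated with separate embryo batches on separate days, unless noted otherwise. Whether this held for these pools, and whether the replicate number marks such a batch, is not stated. The p-values therefore rest only on the spread between the values of these libraries. That spread was mirrored between the genotypes, and may not be that of the pools as sampled. The 10 members, the Hippo, Ccn, target and marker lists and the settings were chosen with earlier results of these data known. Genes named by rule were the members, *egr3*, *wwtr1*, up to 4 genes per list with the largest log2 difference, the neighbors of *ccn1l2* and the 3 genes most like it. The single marker genes, *lgi3*, *si:dkey-32e23.4*, *rhobtb2a*, *nr4a2b*, *spp1* and *nrg1* were named after their values were seen. Symbols of the lists were matched exactly.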

Additional observations from a re-analysis of the deposited data

How the results depend on the processing

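The number of genes called was 1 with all libraries, 0 with no filter on low values, 3 with a mean of at least 20, 28 without the variance trend and 0 with each library left out in turn (range 0 to 0). Same-numbered pools deviated in opposite directions across the 17501 genes (correlation -0.987, and 0.987 for wild type 1 with mutant 2). The main fit did not use the replicate number as a block. Whether an effect of that number had already been taken out of the values is not known, and the standard errors of the main fit would then be too small. With the replicate block, 0 genes were called, 858 (4.9%) had an unadjusted p under 0.05 in limma, and *ccn1l2* was the 1 member among them. In that fit *tead1a* had a standard error of 0.40 (unadjusted p = 0.0695 from limma) and *ccn1l1* one of 1.02 (unadjusted p = 0.0569 from limma). With the crossed replicate block, a fit added after seeing the data, 12169 genes were called, including 7 members: *ccn1l2* (3.75), *ccn1l1* (2.72), *tead1a* (1.00), *tead3b* (0.42), *ccn2b* (0.34), *tead1b* (0.12) and *ccn1* (0.11). Its residual is the difference between the crossed comparisons, mutant 2 minus wild type 1 and mutant 1 minus wild type 2. For *ccn1l2* these were 3.74 and 3.76, and they were nearly equal for all members but *ccn1l1* (2.32 and 3.12). With so little left over, these calls carry no independent replicate error.

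Leaving out each library in turn moved the log2 fold change of *ccn1l2* between 3.46 and 4.04, of *ccn1l1* between 2.03 and 3.41 and of *tead1a* between 0.82 and 1.18. For *ccn1* it ranged from -0.11 to 0.33 and for *ccn2a* from -0.11 to 0.23. It ranged from 0.19 to 0.65 for *tead3b*, 0.19 to 0.50 for *ccn2b*, 0.02 to 0.22 for *tead1b*, 0.05 to 0.10 for *yap1* and -0.13 to -0.01 for *taz*. The direction of *ccn1* and *ccn2a* reversed without wild type replicate 2 (-0.08 for each) and without mutant replicate 2 (-0.11 for each). The unadjusted p of *ccn1l1* was 0.05 or more without either wild type 1, wild type 2 or mutant 1, that of *tead1a* without wild type 1 or mutant 1, and the number of members under 0.05 then ranged from 1 to 3 of 10, against 6.66% to 9.83% of all genes tested in these fits. A lone pool left in a genotype is assumed to vary like the other genotype. The log2 fold change of *ccn1l1* was 1.66 with 5 added before the log and 3.01 with 0.5. *ccn1l1* was not tested with a mean of at least 20. The other members kept their direction under these and the 8 planned settings of the fit. With either rescaling, *yap1* also had an unadjusted p under 0.05. The log2 ratio of the summed Ccn genes was 0.16 with *ccn1l2* and 0.10 without it, within the spread between pools.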
